A study of Danio rerio with 6 samples.

Results

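The 41 genes described here encode small GTPases and the proteins that regulate or read them. They were chosen by name from the deposited table of normalized expression: every gene whose symbol places it among the Rac, Cdc42, Rap, Rab or some related GTPases, or among the arhgef, arhgap, dock, cdc42, rap1gap, rab11fip, rasip or rasgrp families. They make up 1.66% of the 2471 genes analysed. The 37 members described one by one comprise 15 GTPases and 22 regulators or effectors. The GTPases are 4 of Rac and Cdc42, 1 of Rap and 10 of Rab. The others are 4 exchange factors of the arhgef and 2 of the dock family, 7 GTPase-activating proteins of the arhgap family, 3 Cdc42 effectors, 2 Rap GTPase-activating proteins, 2 Rab11 interactors and the pair rasip1 and rasgrp4. The rule also covers arhgdi genes, Ral regulators and Rin exchange factors, of which none was analysed, and the leukocyte GTPase gene rac2 was not analysed here either.

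RNA was sequenced from zebrafish trunks at 22 hours post fertilization (hpf). All embryos had the genotype NFKB:d2eGFP x kdrl:mCherry, so that cells with NF-kB activity make a short-lived green protein and cells in which the kdrl promoter is active, which drives a receptor of the growth factor VEGF, make a red one. Live red cells were sorted by green fluorescence into kdrl+/NFKB+ and kdrl+/NFKB- samples of about 7000 cells, 3 libraries each. The labels number the samples of each sort as biological replicates, without saying whether each came from its own pool of embryos. NF-kB was not perturbed in these embryos: the groups differ in reporter fluorescence, and the kdrl promoter can mark blood cells that derive from the same progenitors as well as vessels.

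A small GTPase is a switch: it binds its effectors while it carries GTP and is released from them once the GTP is cleaved. Guanine nucleotide exchange factors (GEFs) load the switch with GTP, and GTPase-activating proteins (GAPs) turn it off. Rac and Cdc42 control actin, cell shape and migration, Rap proteins control integrins and cell junctions, and Rab proteins label the membranes of vesicles and direct their transport. In endothelium they act in junction formation and in the opening of the vessel lumen, and in leukocytes in migration, phagocytosis and granule release.

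The table had been filtered on the comparison that it shows, at 2-fold and adjusted p 0.01 in the authors' own test. Each gene analysed therefore differs between the sorts by construction, and tests on the members are given as descriptions. The members nearest that limit were rac3b, cdc42se1 and arhgap17a, with log2 fold changes of 1.01, 1.04 and 1.06 in the authors' deposited table. Of 266 RefSeq protein-coding genes whose symbols fit the rule, 43 were analysed by gene number (16.2%), against 8.998% of all protein-coding genes and 11.8% of those with a gene symbol. The difference between 43 and 41 is 2 genes that the table lists under clone names, now called rab7b and cdc42bpab, at log2 differences of 1.67 and 1.58. They were left out of the members because the rule reads the table's own names. For the other 223 it is not known here whether they failed the fold limit, the p limit or the read depth needed for a test.

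The sorts also differed in blood RNA. Of 26 pan-endothelial marker genes 21 were analysed, and 20 of them were higher in NFKB+ cells. Their summed level was 836575 to 880576 normalized reads in NFKB+ and 266913 to 332756 in NFKB- libraries. The exception was tal1, which blood progenitors share. All 21 myeloid markers analysed, of 26 listed, were lower in NFKB+ cells, with sums of 20932 to 25805 against 183903 to 227778, and so were all 16 erythroid markers, of 25, with sums of 728859 to 884967 against 5162560 to 7178110. The 6 epidermis markers analysed, of 20, were higher, with sums of 3161 to 6169 against 1232 to 2049. No analysed marker was at 0 in any library, and cdh5 and tie1, which define endothelium, lay at mean log2 levels of 15.57 and 15.78 in NFKB+ and 14.00 and 13.96 in NFKB- libraries. Globin genes took 6.69% to 7.84% of the reads in the table in NFKB+ and 35.9% to 41.7% in NFKB- libraries. The part of these shifts in the differences below was not tested. In bulk samples, fewer cells of a type and less RNA per cell cannot be told apart.

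Most members were higher in NFKB+ cells. As deposited, the few that were lower differed more, and how much more depended on the scaling of the libraries. Of the 41 members, 31 (75.6%) were higher in NFKB+ cells and 10 were lower. Over the whole table, 54.5% of genes were called higher and 45.5% lower. Differences are given as NFKB+ minus NFKB- on the scale log2(normalized reads + 1). They came from limma, which fits all genes together, with Benjamini-Hochberg adjustment over the 2471 genes at a threshold of 0.05. The fit saw only genes past the authors' test on the same libraries, so its standard errors and p-values may be too small. The added 1 slightly lowers changes of low genes, but the values here are not always the smaller ones. The least abundant members, rab3ab and arhgap15, had differences of -2.47 and -2.94. The authors' log2 fold changes for them were smaller in size, at -2.20 and -2.64. The median log2 difference was 1.298 over the members and 1.08 over the table.

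On the deposited scale the 31 higher members ranged from 1.02 to 2.235, with a median of 1.40 against 1.48 for all higher genes. Only rab11bb among them reached 4-fold, which is 3.23% of the higher members, against 17.3% of all higher genes. The 10 lower members spanned -3.07 to -1.13, with a median of -2.61 against -1.52 for all lower genes, and 8 of them (80.0%) reached 4-fold, against 32.5% of all lower genes. Counted over the whole table, 9.43% of genes were higher and 14.8% lower by 4-fold or more. With libraries scaled to the same total of the table's reads, 12 higher and 5 lower members reached 4-fold (25.8% and 8.86% of the table). These were 38.7% of higher and 50% of lower members, against 47.4% of all higher and 19.5% of all lower genes. By median ratios 0 higher and 10 lower members reached 4-fold (1.74% and 39.5% of the table). Of all higher and all lower genes, 3.19% and 86.8% did so. At the same total without globins 1 and 9 members did (7.73% and 16.5% of the table), against 14.2% and 36.3% of all higher and lower genes. Medians of the higher and lower members were 1.90 and -2.12 at the same total, against 1.97 and -1.03 for all higher and lower genes. By median ratios they were 0.52 and -3.47, against 0.60 and -2.40. The groups did not overlap for any of the 41 members, nor for 99.6% of the table. All 41 passed limma's adjusted p, the highest value being 0.00199, as did 100% of the table, which follows from the authors' selection. Each member had a mean of 64.6 normalized reads or more, and the median member 1381.

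**Figure D1:**
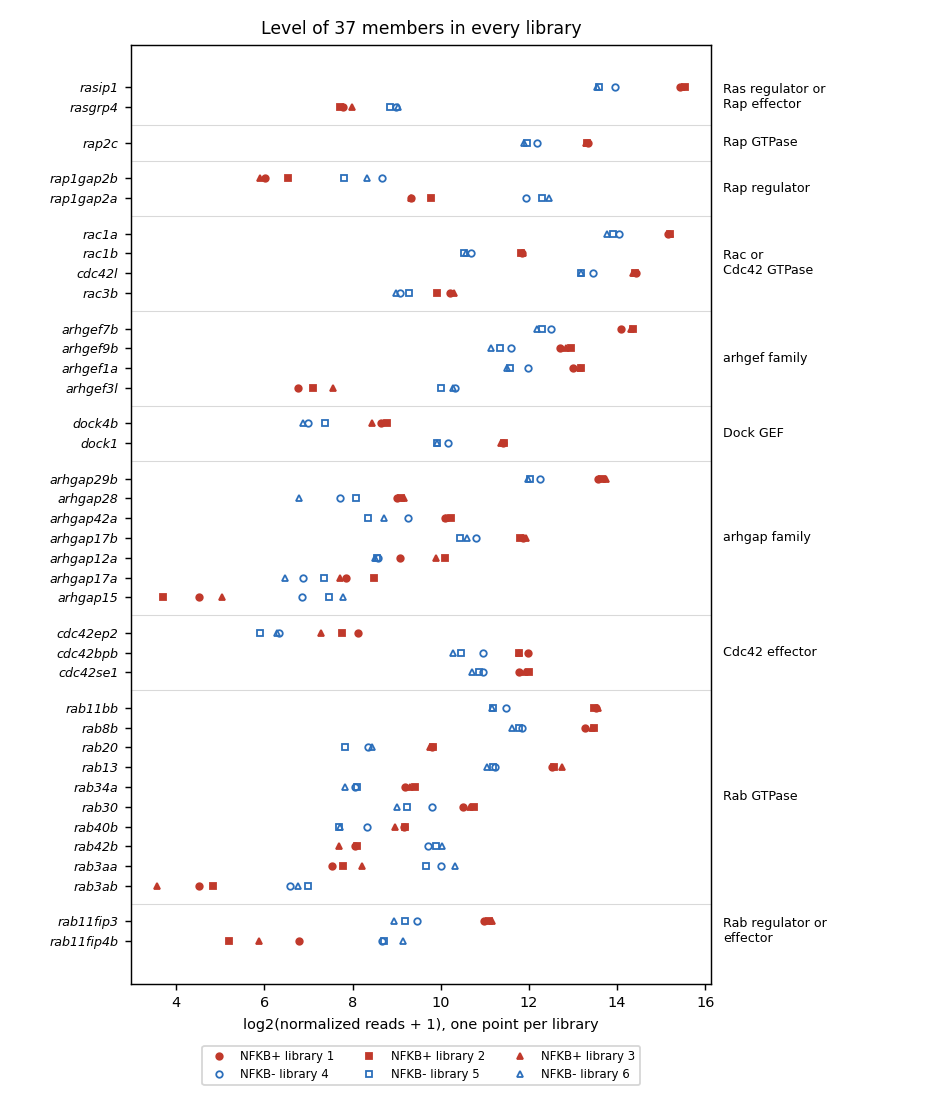
Level of 37 members on the log2(normalized reads + 1) scale (horizontal axis) in the 6 libraries, with members grouped by role (vertical axis). Filled red symbols are NFKB+ libraries 1 to 3 and open blue symbols NFKB- libraries 4 to 6. The colours separate for all 37, with red to the right for 28 and to the left for 9.

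**Figure D2:**
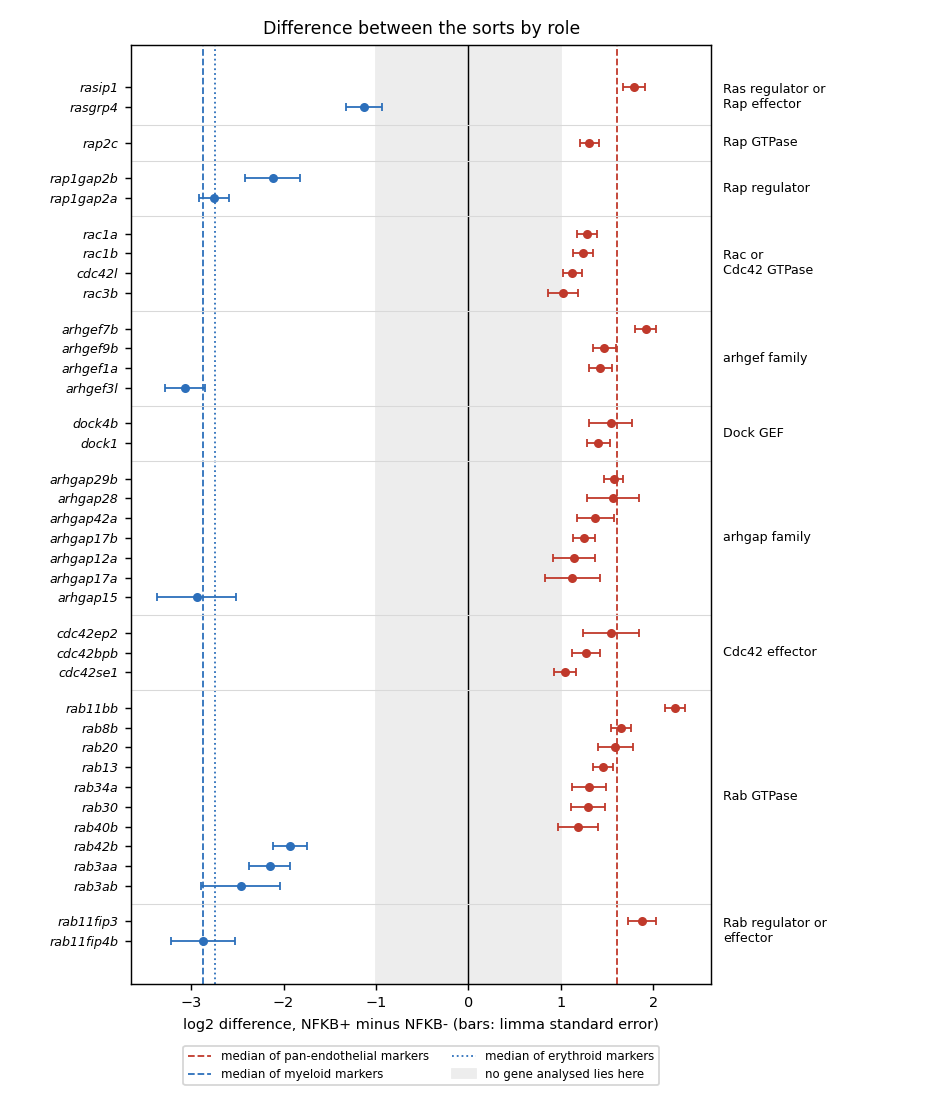
Log2 difference between the sorts for the same 37 members (points, NFKB+ minus NFKB-) with limma's standard error (bars), by role. Dashed and dotted lines are the median differences of the pan-endothelial (1.60), myeloid (-2.87) and erythroid (-2.75) markers, and the grey band holds no gene because the table was filtered at 2-fold. Of the 28 higher members drawn 5 lie to the right of the endothelial line and 23 to its left. Of all 1347 higher genes of the table, 518 lie above that median and 829 below it. The lower members range from -3.07 to -1.13.

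The members around the Rap switch held the most abundant gene of the set and went both ways. The gene rasip1 (NCBI Gene 102725533) encodes a scaffold of vessel endothelium that binds active Rap and is needed for lumen formation in mice. Its log2 level was 15.43, 15.54 and 15.48 in NFKB+ libraries 1 to 3 and 13.96, 13.58 and 13.54 in NFKB- libraries 4 to 6. The NFKB+ libraries lay together, and library 4 was the highest of the NFKB- libraries. The difference was 1.79 with a standard error of 0.12 (limma adjusted p = 2.47e-09). The gene rap2c (NCBI Gene 474323), the one Rap GTPase analysed, stood at 13.35, 13.33 and 13.29 in NFKB+ and 12.19, 11.95 and 11.90 in NFKB- libraries, 2.48-fold higher.

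The 2 Rap GAP genes among the members, which are copies of each other, went the other way. The gene rap1gap2a (NCBI Gene 561339) encodes a Rap1 GAP whose human relative acts in platelet granule release. It had log2 levels of 9.32, 9.79 and 9.32 in NFKB+ and 11.93, 12.30 and 12.45 in NFKB- libraries and was 6.73-fold lower, a difference of -2.75 with a standard error of 0.16. Its duplicate rap1gap2b was 4.34-fold lower, at a mean log2 level of 6.15 ± 0.34 against 8.27 ± 0.43 (SD, n = 3 each). The gene rasgrp4, a Ras exchange factor known from mammalian myeloid cells, had the smallest difference of the lower members. It lay at 7.78, 7.71 and 7.98 in NFKB+ and 8.98, 8.84 and 9.03 in NFKB- libraries, 2.19-fold lower. The myeloid and erythroid marker medians in the same libraries were -2.87 and -2.75, and their part in these falls was not tested.

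The 4 Rac and Cdc42 GTPase genes analysed, of 9 annotated, were all higher in NFKB+ cells, beside 54.5% of the table. The direction of those not analysed is not known here. The Rac genes direct sheet-like protrusions of the cell edge. The gene rac1a (NCBI Gene 327204) lay at 15.16, 15.21 and 15.21 in NFKB+ and 14.05, 13.91 and 13.77 in NFKB- libraries, which is 2.43-fold higher. Its duplicate rac1b lay at 11.84, 11.81 and 11.86 and 10.69, 10.53 and 10.58, and was 2.36-fold higher. Their relative rac3b had 10.21, 9.91 and 10.30 and 9.09, 9.28 and 8.98, and at 2.03-fold its difference was the smallest of all members. The libraries of each sort stayed close together for these genes, with SDs from 0.023 to 0.21 on the log2 scale.

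The gene cdc42l (NCBI Gene 793158), a copy of the filopodium and polarity switch Cdc42, stood at 14.43, 14.40 and 14.36 in NFKB+ and 13.45, 13.18 and 13.19 in NFKB- libraries and was 2.18-fold higher.

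Exchange factors were mostly higher in NFKB+ cells, 3 of 4 arhgef and both dock genes, beside 54.5% of the table. RefSeq lists 34 arhgef and 12 dock genes. The gene arhgef7b (NCBI Gene 494081), which the table also lists as bPIX and as bbh, the gene of a zebrafish mutant with brain haemorrhage, activates Rac and Cdc42. Its levels were 14.08, 14.35 and 14.30 in NFKB+ and 12.49, 12.31 and 12.18 in NFKB- libraries, a difference of 1.92 with a standard error of 0.11 (3.78-fold). The Cdc42 exchange factor gene arhgef9b was 2.77-fold higher, at a mean log2 level of 12.84 ± 0.12 against 11.37 ± 0.23 (SD, n = 3 each). The gene listed as arhgef1a, which RefSeq now calls arhgef2a, was 2.69-fold higher, at a mean log2 level of 13.11 ± 0.10 against 11.68 ± 0.25 (SD, n = 3 each). For arhgef9b and arhgef1a the NFKB- libraries spread more widely than the NFKB+ libraries. The SDs of arhgef7b were 0.15 in NFKB+ and 0.16 in NFKB- libraries.

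The fourth, arhgef3l (NCBI Gene 553761), was 8.39-fold lower, the largest difference in size among the 37 members described one by one. It lay at 6.77, 7.09 and 7.55 in NFKB+ and 10.32, 10.01 and 10.28 in NFKB- libraries, so its spread was wider among the NFKB+ libraries. The dock genes encode exchange factors of another fold that act on Rac. The gene dock4b had 8.65, 8.77 and 8.44 in NFKB+ and 6.98, 7.38 and 6.88 in NFKB- libraries and was 2.91-fold higher. Its relative dock1, which works with Elmo proteins, was 2.65-fold higher, at a mean log2 level of 11.41 ± 0.035 against 10.00 ± 0.15 (SD, n = 3 each).

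Of the 7 arhgap genes analysed, of 46 annotated, 6 were higher in NFKB+ cells (85.7%, beside 54.5% of the table). The gene arhgap29b (NCBI Gene 378998) encodes a GAP that works with Rasip1 and Rap in mammalian endothelial cells. Its levels were 13.57, 13.67 and 13.74 in NFKB+ and 12.26, 12.02 and 11.98 in NFKB- libraries, 2.97-fold higher (difference 1.57, standard error 0.11). The genes arhgap28 and arhgap42a were 2.96- and 2.59-fold higher, with SDs in the NFKB- libraries of 0.67 and 0.46. The genes arhgap17b and arhgap17a, whose mammalian relative acts on Cdc42 and Rac at epithelial junctions, were 2.38- and 2.18-fold higher. Of these, arhgap17a had 222, 300 and 325 reads in NFKB+ and 103, 170 and 80 reads in NFKB- libraries, and its adjusted p was the highest among the members. The Rac GAP gene arhgap12a was 2.21-fold higher, and NFKB+ library 1, at 9.09, lay well below libraries 2 and 3, at 10.10 and 9.90.

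The exception was arhgap15 (NCBI Gene 100003547), a GAP of Rac in mouse neutrophils and macrophages. It had 21, 10 and 50 reads in NFKB+ and 101, 183 and 200 reads in NFKB- libraries. On the log2 scale these are 4.51, 3.70 and 5.05 against 6.84, 7.46 and 7.77, 7.68-fold lower in NFKB+ cells. The difference was -2.94 with a standard error of 0.42, one of the least precise of the set. The ratio of the mean normalized reads was 7.70.

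All 3 Cdc42 effector genes among the members, of 12 annotated, were higher in NFKB+ cells, beside 54.5% of the table. The gene cdc42ep2, which encodes a septin and actin organizer, had 267, 179 and 243 reads in NFKB+ and 71, 61 and 71 reads in NFKB- libraries. Its log2 levels of 8.12, 7.75 and 7.29 and 6.34, 5.89 and 6.29 gave a 2.92-fold excess. The gene cdc42bpb encodes a kinase that activates myosin at the cell cortex, and it was 2.42-fold higher, at a mean log2 level of 11.84 ± 0.12 against 10.56 ± 0.35 (SD, n = 3 each). The small effector gene cdc42se1 was 2.07-fold higher, at a mean log2 level of 11.89 ± 0.12 against 10.85 ± 0.13 (SD, n = 3 each).

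Vesicle traffic genes went both ways. Of 10 Rab GTPases, of 75 annotated, 7 were higher and 3 lower in NFKB+ cells (70% higher, beside 54.5% of the table). The gene rab11bb (NCBI Gene 436828), a GTPase of recycling endosomes, had the largest excess of all 41 members. Its levels were 13.52, 13.47 and 13.56 in NFKB+ and 11.48, 11.20 and 11.17 in NFKB- libraries, 4.71-fold higher, with a difference of 2.235 and a standard error of 0.11 (limma adjusted p = 1.13e-10). The gene rab8b, of polarized delivery to the cell surface, was 3.14-fold higher, at a mean log2 level of 13.39 ± 0.11 against 11.74 ± 0.11 (SD, n = 3 each). The gene rab13, of junction traffic and cell migration, was 2.74-fold higher, at a mean log2 level of 12.61 ± 0.12 against 11.16 ± 0.095 (SD, n = 3 each). The remaining higher members were rab20, of endosome and phagosome maturation, rab34a, of cilium formation and macropinocytosis, rab30, of the Golgi, and rab40b, of ubiquitin ligase complexes. These were 3.01-, 2.47-, 2.46- and 2.28-fold higher.

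The 3 lower Rab genes included both copies of Rab3a, a GTPase of regulated secretion best known from synaptic vesicles. The gene rab3ab (NCBI Gene 550457) was the least abundant member, with 21, 23 and 17 reads in NFKB+ and 84, 131 and 98 reads in NFKB- libraries. On the log2 scale these were 4.51, 4.84 and 3.57 against 6.58, 6.98 and 6.75, 5.52-fold lower in NFKB+ cells. Its copy rab3aa was 4.44-fold lower, at a mean log2 level of 7.84 ± 0.35 against 9.99 ± 0.33 (SD, n = 3 each), and rab42b was 3.81-fold lower, at a mean log2 level of 7.94 ± 0.23 against 9.87 ± 0.15 (SD, n = 3 each).

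The 2 genes for Rab11 interactors, which tether recycling endosomes, went opposite ways. For rab11fip3 (NCBI Gene 573631) the levels were 10.97, 11.11 and 11.16 in NFKB+ and 9.46, 9.20 and 8.94 in NFKB- libraries, 3.68-fold higher. For rab11fip4b (NCBI Gene 100151129) they were 6.79, 5.21 and 5.88 and 8.66, 8.72 and 9.13, 7.34-fold lower. The NFKB+ libraries of rab11fip4b ranged more widely than those of any other member, with an SD of 0.80, and held 106, 30 and 90 reads. The highest NFKB+ library lay 1.86 below the lowest NFKB- library, and the groups did not overlap for 99.6% of the table either.

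Zebrafish keep many genes as duplicates, often marked by a closing a or b in the symbol. Among the 41 members are 5 pairs of such copies. Both copies lay on the same side in each pair. However, 75.6% of all members lay on the higher side, and a pair counts only where both copies passed the authors' filter. Of 23 members with an annotated copy, 13 had a copy that was not analysed, so the direction of most such copies is not known here. The difference between copies within a library depends little on how libraries are scaled, so it was compared between the sorts with a two-sided exact permutation test for 4 of the pairs, and for rasip1 with arhgap29b. The pairs were picked with the values known. With 3 libraries against 3 the smallest p is 0.1, so none of these tests could pass 0.05.

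The log2 level of rac1a minus that of rac1b was 3.31, 3.40 and 3.35 in NFKB+ and 3.36, 3.38 and 3.19 in NFKB- libraries. The means differed by 0.044 (exact permutation p = 0.7, 0.8 adjusted over the 5 comparisons). These groups overlapped. For rap1gap2a minus rap1gap2b the values were 3.31, 3.24 and 3.41 against 3.26, 4.48 and 4.12, a difference of -0.63 (exact permutation p = 0.3, adjusted 0.75). The pairs rab3aa with rab3ab and arhgap17a with arhgap17b differed by 0.32 and -0.13 between the sorts (exact permutation p = 0.8 and 0.6, both 0.8 adjusted), with wide spreads. These values do not show that the copies behave alike.

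For rasip1 minus arhgap29b the values were 1.86, 1.87 and 1.74 in NFKB+ and 1.70, 1.56 and 1.56 in NFKB- libraries. Here the groups did not overlap, and the means differed by 0.22, the smallest p the design allows (exact permutation p = 0.1, adjusted 0.5). The shift is small beside the differences of 1.79 and 1.57 that each gene showed by itself on the deposited scale. With libraries scaled by median ratios, the differences of rasip1 and arhgap29b were only 0.91 and 0.69.

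**Figure D3:**
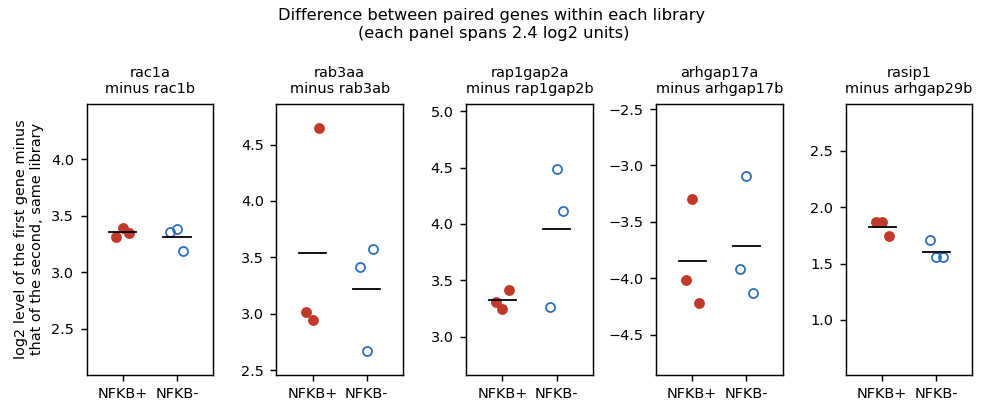
Log2 level of one gene minus that of its partner in the same library (vertical axis, 2.4 units in every panel) for 4 duplicate pairs and for rasip1 with arhgap29b. Points are libraries, NFKB+ filled and NFKB- open, and black lines are means. The groups separate for rasip1 with arhgap29b and overlap for the other 4 pairs.

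The higher members also varied together among the NFKB- libraries, as did the higher and lower genes of the whole table. Library 4 was the highest NFKB- library for 24 of the 31 higher members (77.4%) and the lowest for 0 of them, and library 6 was the lowest for 23 (74.2%). Over all 1347 higher genes of the table, library 4 was the highest for 65.6% and the lowest for 10.8%, and library 6 was the lowest for 53.5%. Library 4 lay a median of 0.17 above the NFKB- mean for the higher members, and library 6 lay 0.14 below it. The same medians over all higher genes were 0.16 and -0.11. The order was less clear for the 10 lower members. Among them library 6 was the highest for 6 and library 4 for 3, beside 70.4% and 12.01% of all lower genes. Libraries 4 and 5 were each the lowest for 5 of them (50%), beside 61.9% and 27.1% of all lower genes. The globin share was 35.9% in library 4, 39.7% in library 5 and 41.7% in library 6, and its part in this order was not tested. Among the NFKB+ libraries, library 2 was the highest for 15 of the 31 higher members (48.4%, beside 48.8% of all higher genes) and library 1 the lowest for 16 (51.6%, beside 44.4%).

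The members took 2.53% to 2.59% of the table's reads in NFKB+ libraries and 0.602% to 0.867% in NFKB- libraries. Globins took 6.69% to 7.84% and 35.9% to 41.7% of the same reads, so these shares do not measure the members' levels alone. Set beside the pan-endothelial markers, whose median difference was 1.60, 6 of the 31 higher members differed more and 25 less. Of all 1347 higher genes of the table, 518 differed more and 829 less. The 6 members included rab11bb, arhgef7b, rab11fip3, rasip1 and rab8b. The differences of rac1a, rac1b, cdc42l and rac3b lay 0.32, 0.37, 0.48 and 0.58 below that median, and those of arhgap29b and rab20 only 0.034 and 0.012 below it.

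Genes of the same pathways under other names also went both ways. They come from the same filtered table, and the lists were chosen with earlier results known. The list of Rac and Cdc42 effectors was shortened after its values were seen, so the counts are a description only. The 6 lists hold 352 annotated genes, of which 60 were analysed, and 41 of these were higher and 19 lower in NFKB+ cells (68.3% higher, beside 54.5% of the table). Their median difference was 1.23. The 5 Ras, Ral and related GTPases analysed, of 36, were higher, from 1.12 for hrasb to 1.47 for the exocytosis switch ralaa, with rras2, hrasa and rras at 1.296, 1.24 and 1.22. Of 9 Arf, Arl, Sar and Rnd GTPases, of 53, 5 were higher, among them rnd3a and rnd1 at 1.41 and 1.41 with arl11 at 1.42 and arl5c at 1.11. The 4 lower ones were arl13a, arf3a, sar1ab and arf4a, at -2.20, -1.55, -1.49 and -1.11.

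Of 17 names on the list of Rac and Cdc42 effectors, of 46, 11 were higher and 6 lower. The actin nucleation gene wasla, the membrane-bending protein gene baiap2a and the scaffold gene iqgap2 were higher at 1.75, 1.73 and 1.50. The lower ones included wasb, of the blood cell actin regulator WASP, at -3.33 (10.0-fold), and wipf1a, of a partner of WASP, at -2.04. The genes abi3a and baiap2l1b lay at -2.53 and -2.12. The list's name pattern also caught genes not known as effectors of these GTPases, among them pak1ip1 and abi3bpb, the latter at 1.61 with overlapping groups.

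Of 12 Ras and Rap regulators and effectors analysed, of 68, 10 were higher. They were led by rassf4, the feedback inhibitor gene spry2, the Rap exchange factor gene rapgef1b and spred1, at 1.86, 1.81, 1.75 and 1.47. The 2 lower ones were apbb1ip, which links Rap to integrins in blood cells, at -3.21 (9.27-fold), and rassf2b at -1.70. Of 10 Rab regulators and effectors, of 101, 7 were higher, led by the junction gene micall2a and by mon1a, rabep2 and mical3b at 1.57, 1.52, 1.50 and 1.40. The secretion effector gene sytl1, dennd2da and dennd6b were lower at -2.37, -1.19 and -1.12.

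Arf regulators were the one list with more lower than higher genes, 4 against 3 of 7 analysed, of 48. The lower ones were cyth4b, agap2, acap1 and git2a at -2.86, -2.44, -1.29 and -1.06, and the higher ones acap2, asap1a and asap2a at 1.69, 1.58 and 1.29. The myeloid markers, at a median of -2.87, fell in the same libraries as the lower genes of these lists, and their part was not tested.

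**Figure D4:**
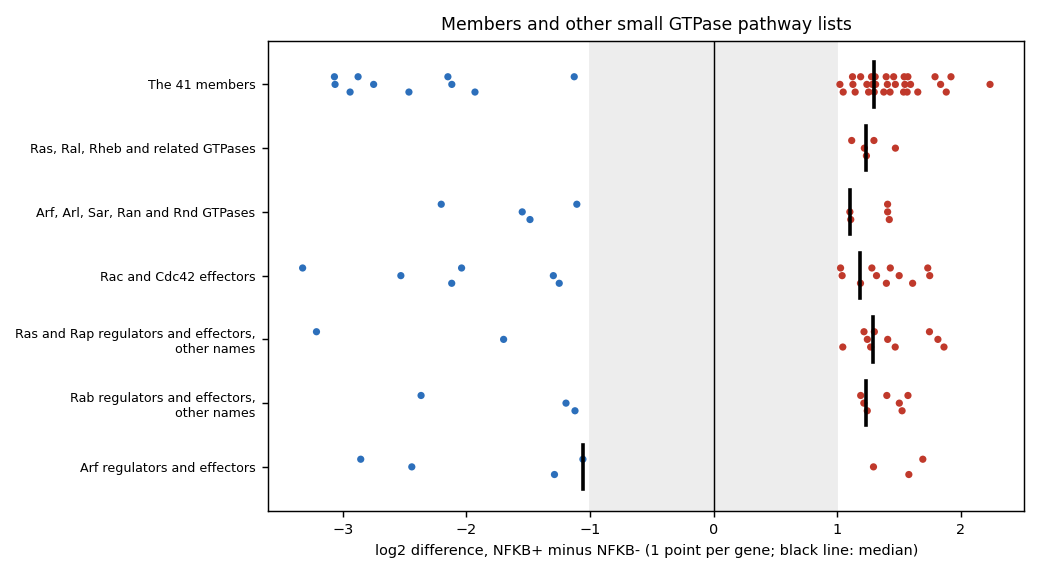
Log2 difference between the sorts (horizontal axis, NFKB+ minus NFKB-) for the 41 members and for the 60 genes of 6 other small GTPase pathway lists (rows). Each point is a gene, red where higher and blue where lower in NFKB+ cells, and black lines are medians. The medians are positive in every row except that of the Arf regulators.

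The size of the excess depended on the scaling of the libraries. The scalings other than the deposited one were computed from the genes analysed alone. All of these were selected for a difference, so no such scaling rests on unchanged genes. How the values would move with the genes left out of the table was not tested. The 41 members kept their direction under every scaling tried. With libraries scaled by median ratios, the median of all genes moved by -0.88 and the members' median to 0.42. Under it 25 of the 31 higher members and all 10 lower ones passed limma's adjusted p of 0.05, which is 80.6% and 100%, beside 68.3% of all higher and 100% of all lower genes. Over all genes analysed, 37.2% were then called higher and 45.5% lower. The calls of rac3b, cdc42se1, arhgap12a, arhgap17a, rab40b and cdc42ep2 ended, at adjusted p-values of 0.412, 0.134, 0.286, 0.428, 0.157 and 0.0541. The difference of rac3b was then 0.14 and that of rac1a 0.40, while rasip1, rab11fip3 and rab11bb stood at 0.91, 1.00 and 1.36. Rescaling to the same total moved the median of all genes by 0.49, and to the same total without globins by -0.11, and all 41 calls were kept under both. Over all genes analysed, 54.5% were called higher and 44.5% lower at the same total, and 54.5% and 45.5% without globins.

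**Figure D5:**
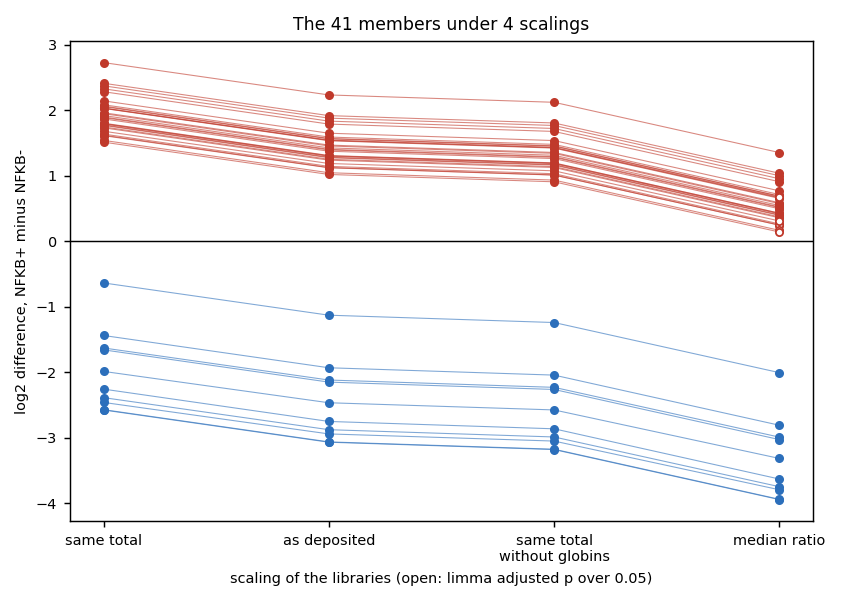
Log2 difference between the sorts (vertical axis) for each member under 4 scalings of the libraries (horizontal axis), lines joining the values of a gene. Filled points passed limma's adjusted p of 0.05 and open points did not. All 31 higher members stay above 0 and all 10 lower members below it, and 6 open points appear under the median ratio.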

How the data were processed

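Programs named in the submitters' processing notes are cutadapt, STAR, HTSeq and DESeq2, with build danRer10. Their versions and the annotation are not given in the sources used here. The authors deposited, per the file headers, log2 values per library and an average log2 expression, and for their comparison a fold score, a log2 fold change and p-values, raw and adjusted. Reversing the log2 gave whole reads over a size factor (0.834 to 1.56), within 0.1 read, for 100% of values under 1000 reads. The table's reads, 8393821 to 15165088 per library, are not library depths, because the authors kept only genes past 2-fold and adjusted p 0.01. Of 2475 rows, 4 with repeated names were left out.

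Columns were assigned to a sort only. The deposited log2 values of all 2471 genes entered limma 3.58.1 (R 4.3.3, eBayes with a mean trend) with no covariate or filter. The fit was tested on simulated data in which most genes did not change, unlike those of the table. All 41 gene numbers were found in RefSeq (GRCz12tu), 40 with the same symbol. That build is not the authors', so coordinates are left out, and no sequences were at hand. Every library's value is given for rasip1, each Rac, Cdc42 and Rap GTPase described, and the member of each other role that differed most in each direction. Up to 4 genes per direction are named from each other list. Members, roles and lists were chosen with earlier results of these data known. Strandedness is not stated, so overlapping antisense genes, like near-identical copies, may share reads. Results for 4 members, and for some other genes of these pathways, are not reported here, and the list of Rac and Cdc42 effectors was shortened for this after its values were seen.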

Additional observations from a re-analysis of the deposited data

How the results depend on the processing

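All 41 members kept their direction under the alternatives run, and 568 of 574 values kept their side of the threshold. The other 6 lost it under median-ratio scaling, as named above. Of the 60 other pathway genes, 40 were followed, and 555 of their 560 values kept their call, the exceptions being abi3bpb, arl11, arl5c, asap2a and mical3b under the same scaling. The authors' selection largely fixes these counts, which say little of stability. Most calls over the whole table were kept as well. With a pseudocount of 8, and with limma-voom on recovered reads, 1347 of 2471 genes were called higher and 1124 lower. These counts were 1344 and 1123 with no mean trend, and 1346 and 1124 with library weights. They were 1297 and 1059 of 2356 genes at a minimum mean of 50 normalized reads. Leaving out NFKB- library 4 gave 1343 and 1122, the same total 1347 and 1100, and median ratios 920 and 1124. At a log2 difference of 2 or more, 1 member was higher and 8 were lower as deposited, 12 and 5 at the same total, 1 and 9 without globins, and 0 and 10 by median ratios, counts added after seeing the data. The members' median of 1.298 became 0.42 under median-ratio scaling, 1.79 at the same total and 1.19 at the same total without globins, and ranged from 1.22 to 1.40 without 1 library at a time (1.40 without NFKB- library 4). A pseudocount of 8, a minimum mean of 50 normalized reads, no mean trend, library weights and limma-voom on recovered reads changed no member's call. No paired analysis was possible because column numbers run from 1 to 6 over both sorts and match no labelled replicate. Depth limits rab3ab and arhgap15 most.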
